A study of Mus musculus with 6 samples.

Results

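The genes described here encode the protein subunits of oxidative phosphorylation, the 5 enzyme complexes of the inner mitochondrial membrane. They were read on arrays of splenic regulatory T cells (Tregs) from mice labelled CREB-KO and CREB-WT. A gene was taken when its symbol starts with Nduf, Uqcr, Cox4 to Cox8 or Atp5, or is Sdha, Sdhb, Sdhc or Sdhd. It also had to have a transcript cluster, the unit of the array, that carries this 1 symbol and no other. This gave 98 of the 30176 genes with a cluster of their own. Of these, 86 were counted as subunit genes, 37 of complex I, 4 of complex II, 8 of complex III, 19 of complex IV and 18 of complex V. They include copies or paralogs of subunit genes, which are Ndufa11b, Ndufb4b, Ndufb4c, Ndufs6b and Ndufa4l2 in complex I and Atp5l2 in complex V. The other 12 of the 98 are 8 Ndufaf genes, which encode assembly factors of complex I, and 4 pseudogenes. Ndufa4, named after complex I, is now known as a subunit of complex IV and was counted there, while its paralog Ndufa4l2 was left in complex I. Clusters that name Cox5b, Ndufa11, Ndufb4, Ndufs6 or Atp5g2 together with another gene were not used. Cox5b and Atp5g2 also have clusters of their own, while Ndufa11, Ndufb4 and Ndufs6 are not analysed here.

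There were 3 arrays per group, each from a separate male mouse of 10 to 12 weeks on the B6 background, and no mouse was treated. CREB-KO mice carried loxP-flanked Creb1, the gene of the cAMP-responsive transcription factor CREB, and a Cre recombinase expressed from the Foxp3 gene, so deletion is aimed at cells that express Foxp3. According to the methods the control mice were CREB-floxed animals without Cre, and the labels call them WT, so only the CREB-KO mice carried the Cre allele. Splenic CD4+CD25+ cells were taken with magnetic beads, and CD4+CD25+Nrp1+ cells were then sorted from them. Array values are on a log2 scale, so a difference of 1 is read as a doubling of signal, and every difference is CREB-KO minus CREB-WT. A value after ± is the standard error (SE) of the difference.

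Complexes I and II feed electrons from NADH and succinate into ubiquinone, complex III passes them to cytochrome c, and complex IV hands them to oxygen. Complexes I, III and IV pump protons as they do so, and complex V, the ATP synthase, lets the protons return and makes ATP. Nearly all subunits are encoded in the nucleus, a few in mitochondrial DNA, and Tregs are known to lean on oxidative phosphorylation more than activated conventional T cells do. CREB binds the cAMP response element (CRE), and the factors NRF1, GABP, ERR alpha and YY1 are known activators of nuclear respiratory genes.

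Array medians over all genes lay between 4.75 and 4.83, and correlations between arrays between 0.980 and 0.988. The labels could not be checked by the targeted gene, since Creb1 had a higher signal on arrays with the CREB-KO label (14.10, 14.39 and 14.79 against 13.30, 13.94 and 13.34, difference 0.90 ± 0.24 SE, unadjusted p = 0.00935, adjusted p = 0.850 by limma). The sources used here do not say where its probes lie relative to the floxed part. Every direction given here rests on the labels. All 8 measured Treg and CD4 T cell markers had high signals, with means from 12.1 to 17.2. On CREB-KO replicate 1 all of them lay below their own mean, with a median deviation of -0.42. On CREB-WT replicate 1 and on CREB-WT replicate 2 only 1 of the 8 lay above its own mean (median deviations -0.16 and -0.09). Differences were above 0 in 4 markers and below 0 in 4, with a median of 0.08. The highest was Izumo1r at 0.42 ± 0.19. Il2ra, the gene of CD25, was the lowest at -0.45 ± 0.18 (unadjusted p = 0.0487 by limma, groups overlapping). It was the 1 marker of 8 below that p (12.5%, against 5.63% of all genes). Foxp3, the defining Treg factor, is not analysed here.

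Promoter windows from RefSeq (GRCm38.p6), 250 bases before to 50 bases after a gene's start, were matched to 74 of the 98 genes, out of 27025 genes in the table. The palindromic CRE, TGACGTCA, was searched because CREB is the factor deleted. It was found in 3 windows, 4.05% of those matched, against 2.03% of all genes. These are the windows of the complex I accessory subunits Ndufa10 and Ndufb2 and of Uqcrfs1, the Rieske iron-sulphur protein of complex III. The stretch around each CRE, cut where the transcript starts, is printed on the gene's strand with the CRE in capitals. The places are chr1:92473782-92473861 on the minus strand for Ndufa10, chr6:39592515-39592564 on the plus strand for Ndufb2 and chr13:30545317-30545381 on the minus strand for Uqcrfs1.
Ndufa10: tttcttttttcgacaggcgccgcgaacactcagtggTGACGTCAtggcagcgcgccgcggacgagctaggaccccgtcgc
Ndufb2: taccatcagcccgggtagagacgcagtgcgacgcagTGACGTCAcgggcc
Uqcrfs1: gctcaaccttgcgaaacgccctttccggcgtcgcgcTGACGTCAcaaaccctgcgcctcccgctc

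The first base of the CRE lay 67 bases before the start of Ndufa10, 14 before that of Ndufb2 and 29 before that of Uqcrfs1. Values of Ndufa10 were 10.97, 11.49 and 11.34 on the CREB-KO arrays and 11.35, 11.11 and 11.57 on the CREB-WT arrays. Those of Ndufb2 were 8.14, 7.70 and 7.68 against 7.69, 7.85 and 8.05. Those of Uqcrfs1 were 8.60, 8.48 and 8.33 against 8.49, 8.51 and 8.54. In each of the 3 genes the groups overlapped. The differences were -0.08 ± 0.18, -0.02 ± 0.17 and -0.04 ± 0.11 (SE), and their 95% intervals reached at most 0.52 in either direction.

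The shorter core, TGACG, which also lies inside the full CRE, was held by 26 of the 74 windows (35.1%, against 23.0% of all genes). The median difference was 0.08 in genes that hold it and 0.01 in those that do not. The gene with this core and the highest difference was Cox6b1, a complex IV subunit that faces the intermembrane space. This core lies on the other strand and so reads CGTCA in the stretch at chr7:30626286-30626362 (minus strand), 212 bases before the start.
Cox6b1: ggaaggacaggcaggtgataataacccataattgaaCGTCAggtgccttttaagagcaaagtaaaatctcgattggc

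Motifs of the known respiratory gene activators were also counted on both strands. NRF1 matches were in 16 windows (21.6%, against 5.19% of all genes), those of ETS factors such as GABP, CCGGAAG, in 19 (25.7% against 9.93%), those of ERR, TCAAGGTCA, in 2 (2.70% against 0.466%) and those of YY1 in 4 (5.41% against 1.17%). Sdha, the flavoprotein of complex II, held 3 NRF1 matches within 98 bases of its start, at chr13:74350241-74350374 on the minus strand, shown because no other window had matches at so many places upstream of the start, a match on both strands of 1 place counted once. Atp5g3, which encodes subunit c of the ATP synthase ring, held the 1 ERR match upstream of a start, at chr2:73911334-73911414 on the minus strand. The matches of both genes lie on the other strand and are in capitals.
Sdha: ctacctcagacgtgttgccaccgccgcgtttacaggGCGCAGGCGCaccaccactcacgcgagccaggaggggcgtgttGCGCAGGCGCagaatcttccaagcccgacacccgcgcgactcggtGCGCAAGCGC
Atp5g3: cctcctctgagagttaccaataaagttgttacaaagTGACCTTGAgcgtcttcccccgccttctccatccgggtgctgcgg

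The median difference of genes with an NRF1 match was 0.00 and that of genes without one 0.04, and for the ETS motif these were 0.07 and 0.03. For YY1 they were -0.09 and 0.05, with all 4 genes that hold it below 0. For ERR they were -0.06 and 0.03, with 1 of the 2 genes that hold it above 0 and 1 below. Of the 2 genes with an unadjusted p below 0.05, described next, Uqcrb had no window in the table and the window of Ndufaf2 held none of these motifs. A match is a run of letters and not a shown binding site.

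No oxidative phosphorylation gene passed the limits used in the study's methods, at least 1.5-fold together with an unadjusted p below 0.05. Of all genes 1.58% passed, 0.915% higher and 0.666% lower in CREB-KO. At an unadjusted p of 0.05 without the fold limit 2 of 98 were called, Uqcrb and Ndufaf2, both higher in CREB-KO, which is 2.04% against 5.63% of all genes (3.52% higher, 2.11% lower). By the methods' t-test 1 of 98 was below that p, Uqcrb, against 5.604% of all genes. After adjustment over all genes by limma no gene of the array was called (0%), and the lowest adjusted p among the 98 was 0.856. In bulk RNA, fewer cells of a type and less RNA per cell cannot be told apart. Differences lay above 0 in 56 genes (57.1%) and below 0 in 42. Of all genes 59.0% lay above 0, and of genes with signals above the median gene 52.2%. Counts by complex given below are to be read beside these shares. The median over the 86 subunit genes was 0.05, beside 0.04 over all genes.

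In 3 genes every CREB-KO array was above every CREB-WT array (7.86% of all genes) and in none was every CREB-KO array below (3.73% of all genes). The 3 were Uqcrb, Cox4i2 and Cox7b. For 42 of the 98 genes (42.9%) the 95% interval of the difference lay within a fold of 1.5 either way. This held for 59.6% of all genes and for 44.2% of genes with signals above the median gene, where nearly all subunit genes lie. For the other 56 genes a difference of 1.5-fold was inside the interval, so 3 arrays a group did not settle whether one exists.

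**Figure D1:**
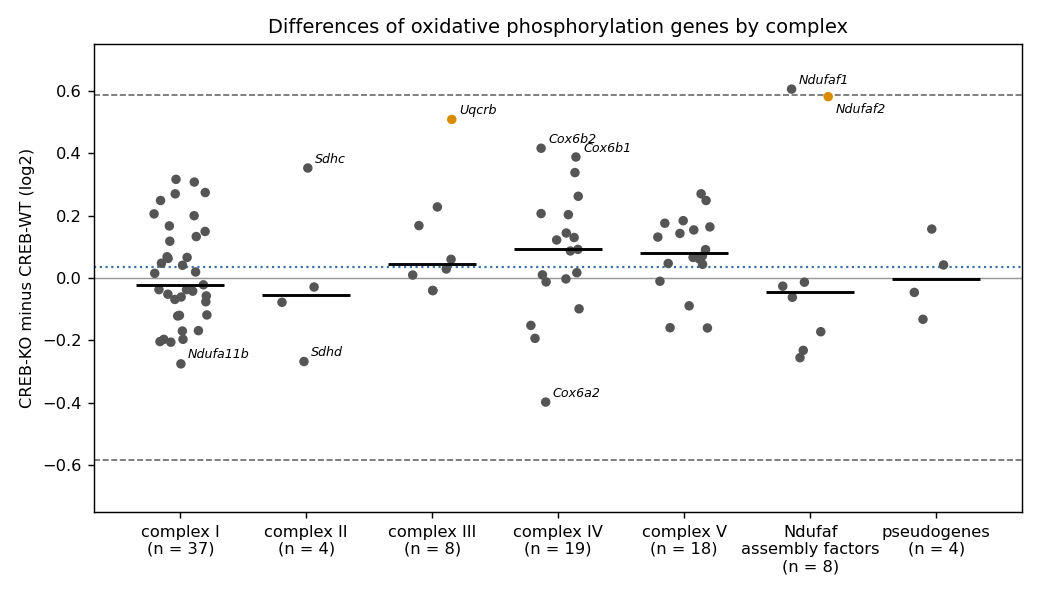
Each point is 1 gene, placed by complex, with its log2 difference (CREB-KO less CREB-WT) on the vertical axis. Black bars are medians, dashed lines the 1.5-fold limit, the dotted line the median of all genes, and orange points the 2 genes with an unadjusted p below 0.05, Uqcrb and Ndufaf2.

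Uqcrb, a small subunit of complex III named for ubiquinone binding, had the lowest p of the 98 genes. It read 13.19, 13.33 and 13.14 on the CREB-KO arrays and 12.48, 12.63 and 13.02 on the CREB-WT arrays. The groups did not overlap, although CREB-WT replicate 3 was only just below the lowest CREB-KO array. The difference was 0.51 ± 0.16 (SE), with a 95% interval from 0.12 to 0.89 and an unadjusted p of 0.0175 by limma. It kept its direction under every alternative tried and was highest, at 0.66, without CREB-WT replicate 3. Its unadjusted p was above 0.05 without CREB-KO replicate 2 (difference 0.45), without CREB-WT replicate 1 (0.39), without CREB-WT replicate 2 (0.47) and without both arrays numbered 1 (0.41).

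Ndufaf2, an assembly factor that is released before complex I is complete, read 9.88, 10.07 and 9.54 in CREB-KO and 9.02, 9.16 and 9.57 in CREB-WT. Here the groups overlapped, since CREB-WT replicate 3 was above CREB-KO replicate 3. The difference of 0.58 ± 0.20 (SE, unadjusted p = 0.0253 by limma) was just short of the fold limit, which is 0.585 on the log2 scale. Its unadjusted p was above 0.05 without CREB-KO replicate 1 or 2, without CREB-WT replicate 1 or 2, without both arrays numbered 1, with the replicate number as a block and by the methods' t-test.

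Ndufaf1, an assembly factor of the membrane arm of complex I, read 9.0, 8.71 and 8.04 against 8.17, 7.44 and 8.31. Its difference was the highest of the 98 genes at 0.61 ± 0.32, but its groups overlapped and its unadjusted p was 0.109. Of the 8 Ndufaf genes 6 lay below 0, and their median was -0.04. The lowest was Ndufaf3, which works as a pair with Ndufaf4 early in assembly, at -0.26 ± 0.31, and Ndufaf4 was at -0.17 ± 0.25. Differences of the 4 pseudogenes ran from -0.13 to 0.16.

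Complex I differences were centred near 0, with 18 of 37 genes above 0, a median of -0.02 and a range from -0.28 to 0.32. The 3 genes with the smallest p were Ndufa11b, Ndufv2 and Ndufa5. Ndufv2, an iron-sulphur subunit beside the NADH site, read 10.36, 10.08 and 10.16 in CREB-KO and 9.79, 9.74 and 10.25 in CREB-WT. The groups overlapped through CREB-WT replicate 3, and the difference was 0.27 ± 0.17 (SE, unadjusted p = 0.154). Ndufa5, an accessory subunit of the matrix arm, was at 0.25 ± 0.18 and Ndufa11b, a copy of the membrane-arm gene Ndufa11, at -0.28 ± 0.16.

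Ndufs1, the largest iron-sulphur subunit of complex I, read 8.20, 9.08 and 8.32 in CREB-KO and 8.93, 8.55 and 8.73 in CREB-WT. CREB-KO replicate 2 was the highest of all 6 arrays and the other CREB-KO arrays were the lowest. The difference was -0.21 ± 0.25, and without CREB-KO replicate 2 it was -0.48 with an unadjusted p of 0.0234. Ndufv1, which binds NADH and flavin, was at 0.13 ± 0.16. Over the 6 measured core genes of complex I the median was 0.05 and over its 26 accessory genes 0.00, with its copies and paralogs in neither.

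Complex II had 1 of 4 genes above 0 and a median of -0.05. Sdha read 9.65, 10.27 and 10.39 in CREB-KO and 9.84, 10.23 and 10.33 in CREB-WT, so that replicate 1 was the lowest array of both groups. The difference was -0.03 ± 0.24. Sdhb, the iron-sulphur subunit, was at -0.08 ± 0.22. The membrane anchors differed in sign. Sdhc read 8.91, 9.42 and 9.06 against 9.01, 8.25 and 9.08 (difference 0.35 ± 0.26), and Sdhd read 7.62, 8.57 and 8.79 against 8.34, 9.01 and 8.44 (difference -0.27 ± 0.34). CREB-WT replicate 2 was the lowest array for Sdhc and the highest for Sdhd. The groups of both genes overlapped, and without CREB-WT replicate 2 the difference of Sdhc was 0.09.

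Complex III had 6 of 8 genes above 0 (75%, against 59.0% of all genes) and a median of 0.04, with Uqcrb apart from the rest. Uqcrh, the hinge protein at cytochrome c1, was next at 0.23 ± 0.22. Uqcrc1, a core protein of the matrix side, read 10.30, 11.43 and 11.04 in CREB-KO and 10.55, 10.41 and 11.31 in CREB-WT. The groups overlapped, with 1 low array in CREB-KO and 2 in CREB-WT, and the difference was 0.17 ± 0.36. Uqcr10, a small subunit, spread widest within CREB-WT, from 9.39 to 11.23, while its CREB-KO arrays stayed between 10.28 and 10.50.

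Complex IV had 13 of 19 genes above 0 (68.4%, against 59.0% of all genes) and a median of 0.09. Cox6b1 had the smallest p of the complex. It read 14.77, 15.24 and 15.15 in CREB-KO and 14.41, 14.76 and 14.83 in CREB-WT. Only CREB-KO replicate 1 and CREB-WT replicate 3 crossed, and in both groups replicate 1 was the lowest. The difference was 0.39 ± 0.18 (SE, unadjusted p = 0.0689 by limma), and 0.53 (unadjusted p = 0.0200) without CREB-KO replicate 1. Cox5b, a zinc-binding subunit, was at 0.20 ± 0.14 and Cox4i1, the common form of the largest nuclear-encoded subunit, at 0.21 ± 0.19.

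Cox5a, which faces the matrix, read 13.29, 13.20 and 13.18 in CREB-KO, an SD of 0.06, and 12.95, 12.30 and 13.63 in CREB-WT, an SD of 0.66. The CREB-KO arrays lay inside the range of the CREB-WT arrays, and the difference was 0.26 ± 0.32. Without CREB-WT replicate 3 it was 0.60 and past the study's limits, and without CREB-WT replicate 2 it was -0.07.

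The 7 tissue isoforms of complex IV had weak signals, with means over the 6 arrays from 3.64 to 6.13. They are Cox4i2, known from lung, Cox6a2, Cox7a1 and Cox8b from heart and muscle, and Cox6b2, Cox7b2 and Cox8c from testis. The means of Cox7b2 and Cox8b were below that of the median gene. Cox6a2 read 6.62, 5.39 and 5.79 in CREB-KO and 7.46, 6.32 and 5.22 in CREB-WT, which gave the widest error of the 98 genes (difference -0.40 ± 0.60). Cox6b2 was at 0.42 ± 0.32, with CREB-KO replicate 1 highest at 6.65 and the other arrays from 5.31 to 5.75. Cox4i2, whose groups did not overlap, differed by 0.13 ± 0.09 (unadjusted p = 0.216), and the small subunit Cox7b, also without overlap, by 0.09 ± 0.10. The 4 remaining isoforms lay between 0.01 and 0.14. Over the 12 genes of complex IV without the isoforms the median difference was 0.05.

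Complex V had 14 of 18 genes above 0 (77.8%, against 59.0% of all genes) and a median of 0.08, with a range from -0.16 to 0.27. Both subunits that form the catalytic head were near 0. Atp5a1, subunit alpha, was at 0.07 ± 0.17, and Atp5b, subunit beta, read 11.85, 12.61 and 12.51 in CREB-KO and 11.96, 12.20 and 12.62 in CREB-WT (difference 0.06 ± 0.26). For Atp5b replicate 1 was the lowest array of each group. Atp5c1, the rotating gamma subunit, was at 0.16 ± 0.15 and Atp5j2, subunit f of the membrane part, at 0.18 ± 0.17. Atp5l, subunit g, was at 0.27 ± 0.25, and at 0.02 without CREB-WT replicate 2.

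**Figure D2:**
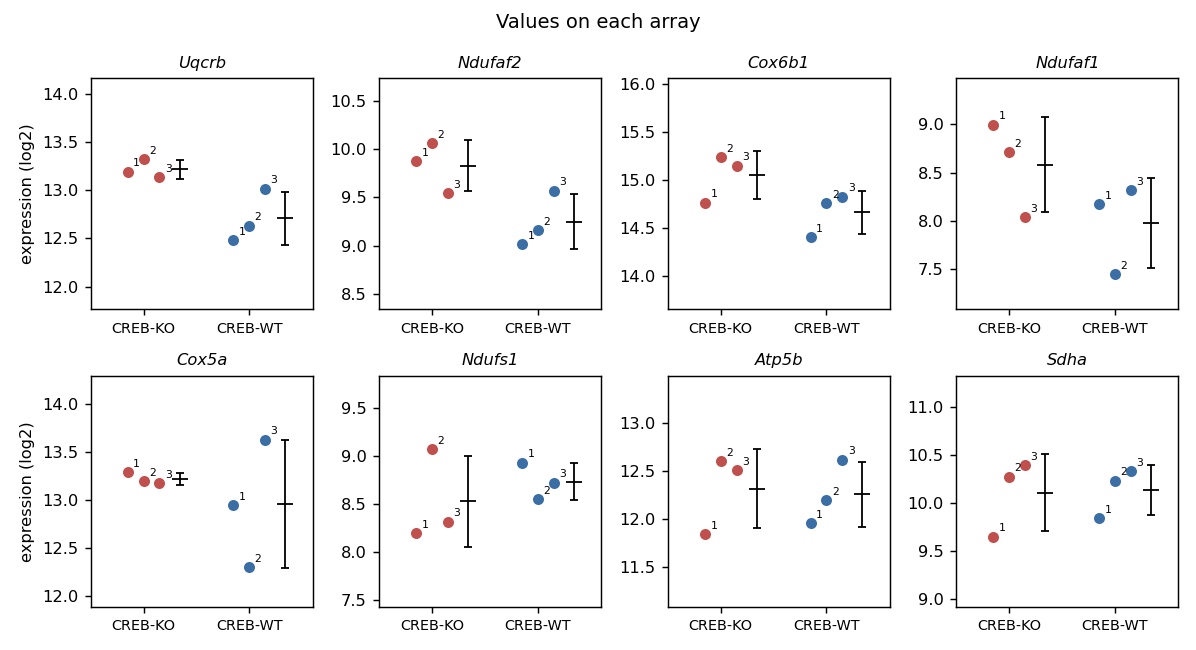
Values of 8 genes on each array (log2, vertical axis, the same span in every panel), CREB-KO in red and CREB-WT in blue, numbered by replicate, with the group mean and SD in black (n = 3). Only the Uqcrb groups do not overlap, and for Cox5a the 3 CREB-KO arrays sit between the CREB-WT arrays.

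Some of these values cannot be given to 1 gene with certainty. The numbers that open a cluster's identifier matched the RefSeq chromosome for 98.7% of clusters with 1 symbol, and for 94 of the 96 members with a RefSeq entry. The exceptions were Atp5l, whose cluster with the highest signal is numbered for chromosome 5 while the gene is on chromosome 9, and Atp5g2, numbered for chromosome 7 while the gene is on chromosome 15. For Atp5g2, another subunit c gene, the cluster numbered for chromosome 15 gave -0.27 where the one used gave -0.16. The other clusters of Atp5l gave 0.32 and 0.03 where the one used gave 0.27. Atp5l, Atp5l2 and Atp5l-ps1 are near copies, as are Ndufb4b and Ndufb4c, so signals may be mixed between them. Atp5d has a second cluster with the opposite sign (0.21 against -0.16).

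For these genes the CREB-WT arrays differed from each other more than the groups did. Each gene was set against its own mean over the 6 arrays, and the median of these deviations was taken over the 86 subunit genes. It was 0.04, 0.08 and -0.02 on the CREB-KO arrays and -0.03, -0.20 and 0.18 on the CREB-WT arrays. CREB-WT replicate 2 was thus the lowest and CREB-WT replicate 3 the highest of all 6, with the CREB-KO arrays between them. Over genes above the median gene the same medians ran only from -0.05 to 0.04.

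CREB-WT replicate 3 was higher than CREB-WT replicate 2 in 76 of 86 subunit genes (88.4%), by a median of 0.42. Of genes above the median gene 60.3% were higher, by a median of 0.10. This held in 18 of 18 genes of complex V, 8 of 8 of complex III, 35 of 37 of complex I and 3 of 4 of complex II, but in 12 of 19 of complex IV. The pair was picked after the values were seen, so these shares are a description.

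The median absolute difference between the groups was 0.13 over the 86 subunit genes, and the median SD within groups was 0.26. The difference exceeded the gene's own SD within groups in 10 of 86 genes (11.6%), against 31.1% of genes above the median gene. Leaving out CREB-WT replicate 2 moved the median difference of the subunit genes from 0.05 to -0.03, and leaving out CREB-WT replicate 3 moved it to 0.13. The same arrays moved the median of complex I to -0.08 and 0.08, that of complex III to -0.05 and 0.16 and that of complex V to -0.0027 and 0.24. That of complex II ran from -0.13 without CREB-WT replicate 1 to 0.14 without CREB-KO replicate 1, and that of complex IV stayed above 0. Without CREB-WT replicate 3, 22 of the 98 genes (22.4%) had every CREB-KO array above both remaining CREB-WT arrays, against 15.5% of all genes, and none had every CREB-KO array below them, against 7.90%. Uqcrb, Ndufaf2 and Cox5a then passed the study's limits, as did 2.64% of all genes. Without CREB-WT replicate 2, 3 genes (3.06%) lay apart upwards and 3 downwards, against 13.7% and 7.74% of all genes, and none passed those limits, against 1.99%.

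**Figure D3:**
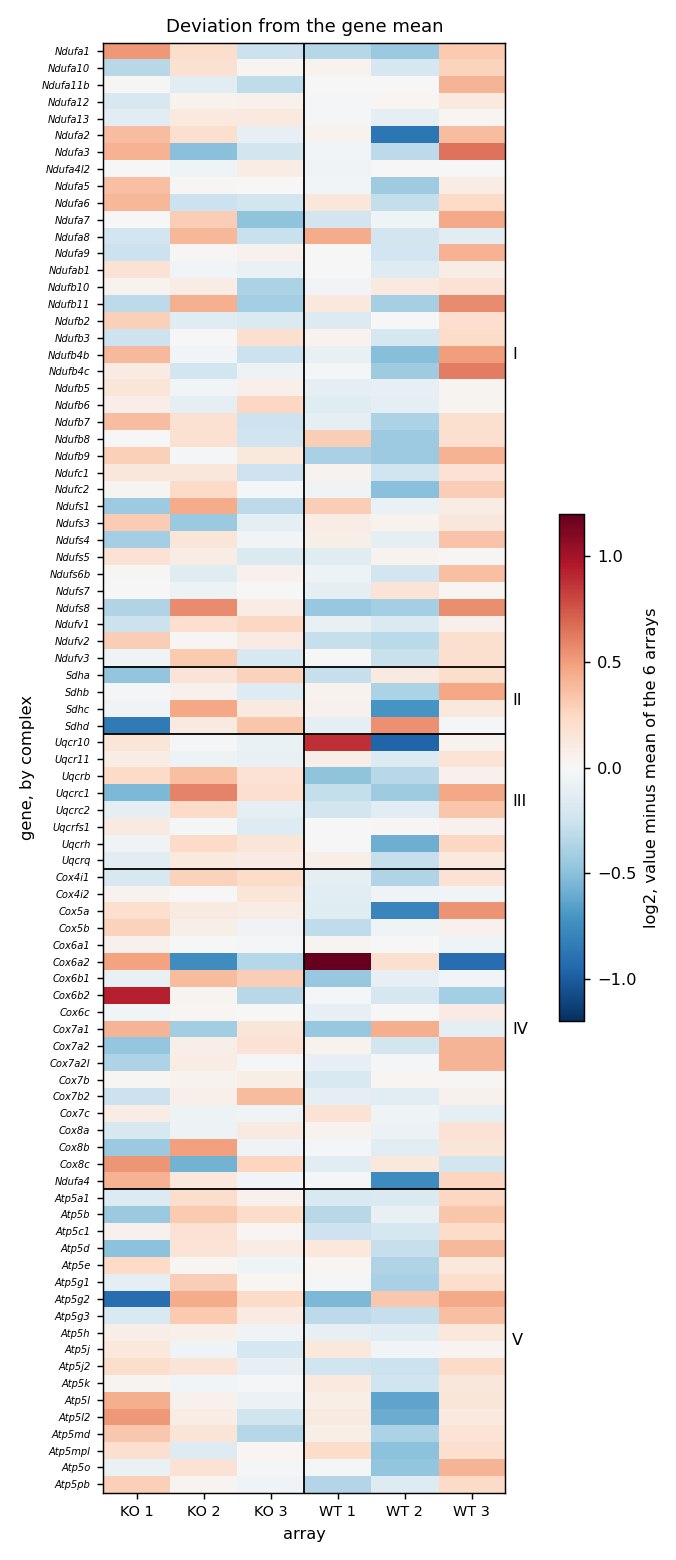
Each row is 1 of the 86 subunit genes, grouped by complex, and each column 1 array, and colour shows the value minus the gene's mean over the 6 arrays (log2, red above, blue below). The column of CREB-WT replicate 3 is mostly red (76 of 86 genes above their mean) and that of CREB-WT replicate 2 mostly blue (16 of 86 above). In complex IV 11 and 5 of 19 genes were above their mean on these arrays, and in complex II 3 and 2 of 4.

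In other lists of mitochondrial genes CREB-WT replicate 3 was also mostly above CREB-WT replicate 2, in 20 of 21 TCA cycle genes, 65 of 74 genes of the mitochondrial ribosome, 23 of 27 genes of mitochondrial protein import, 9 of 11 antioxidant genes and 3 of 3 genes of cytochrome c and c1. The order of the 6 arrays varied between lists. CREB-WT replicate 2 had the lowest and CREB-WT replicate 3 the highest median for the ribosome and import. But CREB-WT replicate 1 was lowest for the TCA cycle (-0.16), coenzyme Q (-0.07) and antioxidant genes (-0.12), and CREB-KO replicate 2 was highest for cytochrome c and c1 (0.34). Markers of macrophages and monocytes moved across the arrays in another order. All 12 measured markers were below 0 in the group difference, with a median of -0.93, and none passed an unadjusted p of 0.05. Their mean level was 7.77, 6.42 and 5.55 on the CREB-KO arrays and 8.27, 7.76 and 6.53 on the CREB-WT arrays. The part of these cells in the subunit values was not tested. Mean B cell marker levels were lower in CREB-KO on every array (5.53, 5.69 and 5.70 against 5.82, 5.92 and 5.78), and those of dendritic cells overlapped (4.92, 4.56 and 4.97 against 5.15, 4.96 and 4.87). Of single markers Fcmr, a B cell receptor for IgM, was lower in CREB-KO at -0.69 ± 0.22 (unadjusted p = 0.0195), as were Itgax of dendritic cells at -0.59 ± 0.23 (unadjusted p = 0.0412) and Cd79a of the B cell receptor at -0.51 ± 0.19 (unadjusted p = 0.0316 by limma). None of these 3 overlapped between groups, and Fcmr and Itgax were past the study's limits. They were 2 of 9 B cell markers (22.2%) and 1 of 6 dendritic cell markers (16.7%) at that p, against 5.63% of all genes. Of all genes 3.73% lay apart downwards and 0.666% passed the limits downwards. Above 0 lay 2 of the 9 B cell markers, Cd22 (0.13) and Blk (0.08), and 1 of the 6 dendritic cell markers, Zbtb46 (0.10). The part of B and dendritic cells was not tested either.

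**Figure D4:**
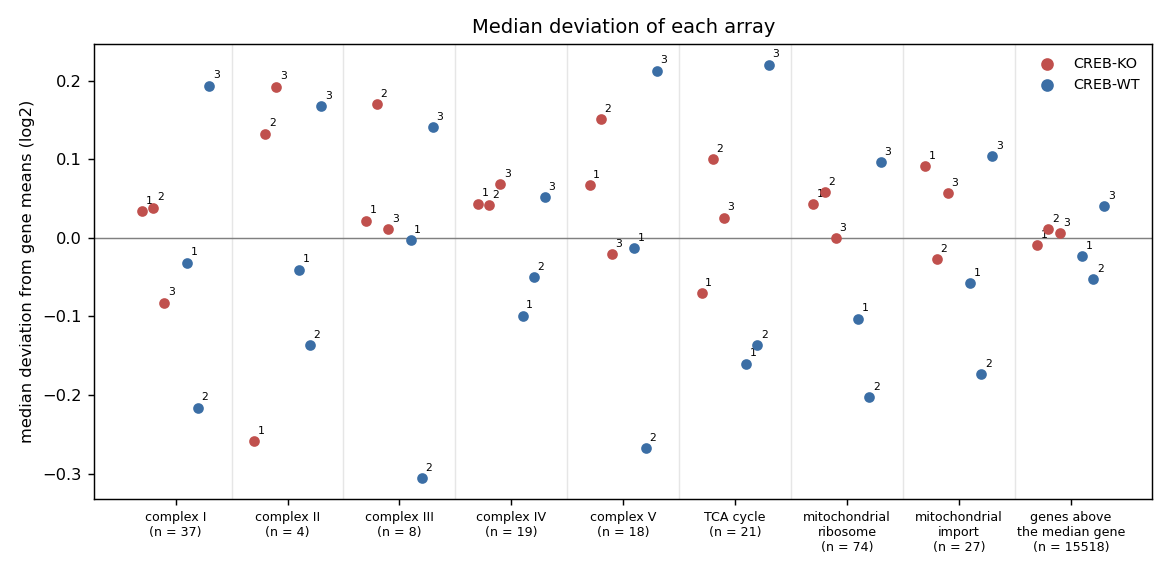
Median deviation of each array from the gene means (log2, vertical axis) for the 5 complexes and other gene lists, CREB-KO in red and CREB-WT in blue, numbered by replicate. CREB-WT replicates 2 and 3 lie at the lower and upper end in complexes I and V, with -0.27 and 0.21 in complex V, and replicate 2 is also lowest in complex III, while genes above the median gene stay between -0.05 and 0.04.

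Of the subunits encoded in mitochondrial DNA, 5 of 13 were measured. Signals of COX1, ND3 and ND6 were at 19.2 or more on every array, near the highest value of the table (19.93), and cannot show much difference. ND2 read 15.44, 15.32 and 14.50 in CREB-KO and 15.30, 15.23 and 15.51 in CREB-WT (difference -0.26 ± 0.26), with CREB-KO replicate 3 the lowest. COX2 was at 0.04 ± 0.11, and its CREB-WT arrays held one and the same value of 10.77. Cytochrome c (Cycs), the carrier between complexes III and IV, was at 0.29 ± 0.25 and at 0.03 without CREB-WT replicate 2, and cytochrome c1 (Cyc1) at 0.00 ± 0.27. Cyct, the testis form of cytochrome c, was below the median gene and at 0.30 ± 0.19.

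Of 42 other assembly factors measured, 3 had an unadjusted p below 0.05 and all were higher in CREB-KO. This is 7.14%, against 5.63% of all genes (3.52% higher, 2.11% lower). In 6 of the 42 every CREB-KO array was above every CREB-WT array (14.3%, against 7.86% of all genes). In none was every CREB-KO array below (against 3.73%). The 6 were Acad9, Tmem242, Lyrm2, Coa4, Ecsit and Foxred1. Tmem242, known in human cells as an assembly factor of the ATP synthase, was the only 1 of the 42 past the study's limits. Of all genes 0.915% passed them upwards and 0.666% downwards. Tmem242 read 7.84, 7.91 and 7.47 in CREB-KO and 7.07, 6.71 and 7.33 in CREB-WT. The groups did not overlap, and the difference was 0.71 ± 0.20 (SE, unadjusted p = 0.0112, adjusted p = 0.850 by limma). Without CREB-WT replicate 2 it was 0.54, below the fold limit, and without both arrays numbered 1 its unadjusted p was 0.0678. Acad9, an acyl-CoA dehydrogenase that also serves complex I assembly, read 7.11, 7.24 and 7.02 against 6.62, 6.58 and 6.84. Its groups did not overlap either, and the difference was 0.45 ± 0.12 (unadjusted p = 0.00803, and 0.0607 without both arrays numbered 1). Acad9 is known to work in 1 assembly complex with Ndufaf1. Lyrm2, an LYR-motif protein linked to complex I, was at 0.33 ± 0.13 (unadjusted p = 0.0386).

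The mitochondrial ribosome translates the subunits encoded in mitochondrial DNA. It had 48 of 74 genes above 0 (64.9%, against 59.0% of all genes) and a median of 0.09. Mrps7 of the small subunit read 6.76, 6.84 and 7.08 in CREB-KO and 6.28, 5.80 and 6.44 in CREB-WT. Mrpl50 of the large subunit went the other way, with 9.46, 9.76 and 9.18 against 9.79, 10.09 and 10.41. The groups of neither gene overlapped. Of the 74 genes, 5 had every CREB-KO array above (6.76%, against 7.86% of all genes) and 1 had every CREB-KO array below (against 3.73%). Both passed the study's limits, with differences of 0.72 ± 0.19 and -0.63 ± 0.21 (unadjusted p = 0.00858 and 0.0233 by limma), and Mrps14 was at 0.39 ± 0.11 (unadjusted p = 0.0125 by limma) without reaching the fold. Of the 74 genes 4.05% were below an unadjusted p of 0.05, against 5.63% of all genes. Mrps7 alone passed the limits upwards and Mrpl50 alone downwards, against 0.915% and 0.666% of all genes. Without CREB-WT replicate 2 the difference of Mrps7 was 0.53, below the fold limit. Mrpl50 was no longer below an unadjusted p of 0.05 without CREB-KO replicate 1 or 3, without CREB-WT replicate 2 or 3 or by the methods' t-test.

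Of the carriers that supply the ATP synthase, the 2 with the smallest p went in opposite directions. Slc25a3, which imports phosphate, read 9.12, 9.17 and 9.06 in CREB-KO and 9.45, 9.38 and 9.44 in CREB-WT. Its groups did not overlap, and the difference was -0.31 ± 0.09 (unadjusted p = 0.0129 by limma). Its unadjusted p was 0.0863 without both arrays numbered 1 and 0.0577 with a trended robust prior. Slc25a4, an ADP/ATP carrier, was at 0.39 ± 0.16 (unadjusted p = 0.0498 by limma). Slc25a5, an ADP/ATP carrier with a stronger signal (14.32 in CREB-KO and 14.47 in CREB-WT), was at -0.15 ± 0.24. The related Slc25a31, below the median gene, was at 0.14 ± 0.13. Slc25a3 and Slc25a4 were the 2 of 11 genes of that list (18.2%) below an unadjusted p of 0.05, against 5.63% of all genes.

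In the other lists single genes were below that p, as were 5.63% of all genes. They were Coq10a of the coenzyme Q list at 0.41 ± 0.16 (1 of 12), the import chaperone Hspa9 at 0.47 ± 0.19 (1 of 27), the mitochondrial DNA polymerase Polg at -0.39 ± 0.15 (1 of 15) and thioredoxin Txn2 at 0.34 ± 0.14 (1 of 11). Like Slc25a4, these 4 genes crossed that p under several alternatives. Next by p were Coq5, a methyltransferase of coenzyme Q synthesis, at 0.48 ± 0.21, the import peptidase subunit Pmpca at 0.26 ± 0.11, the mitochondrial RNA polymerase Polrmt at -0.18 ± 0.09 and the glutathione peroxidase Gpx1 at -0.23 ± 0.12. None of 21 TCA cycle genes was below an unadjusted p of 0.05, and citrate synthase (Cs) was at 0.27 ± 0.19 and Pdha1, of the pyruvate dehydrogenase complex, at -0.27 ± 0.18. Nor was any of 20 genes of mitochondrial biogenesis. The smallest p in that list were those of Tfb2m, a transcription factor of mitochondrial DNA, at 0.35 ± 0.15 (unadjusted p = 0.0555 by limma, groups not overlapping) and of the hypoxia factor Hif1a at 0.31 ± 0.16, whose groups overlapped. Of the factors whose motifs were counted, Nrf1 was at -0.12 ± 0.12, Gabpa at -0.15 ± 0.10 and Yy1 at -0.14 ± 0.20. Gabpb1 was at 0.06 ± 0.15 and Gabpb2 at -0.13 ± 0.11. Of the ERR genes, Esrrb was at 0.04 ± 0.10 and Esrrg at -0.07 ± 0.10, both below the median gene.

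**Figure D5:**
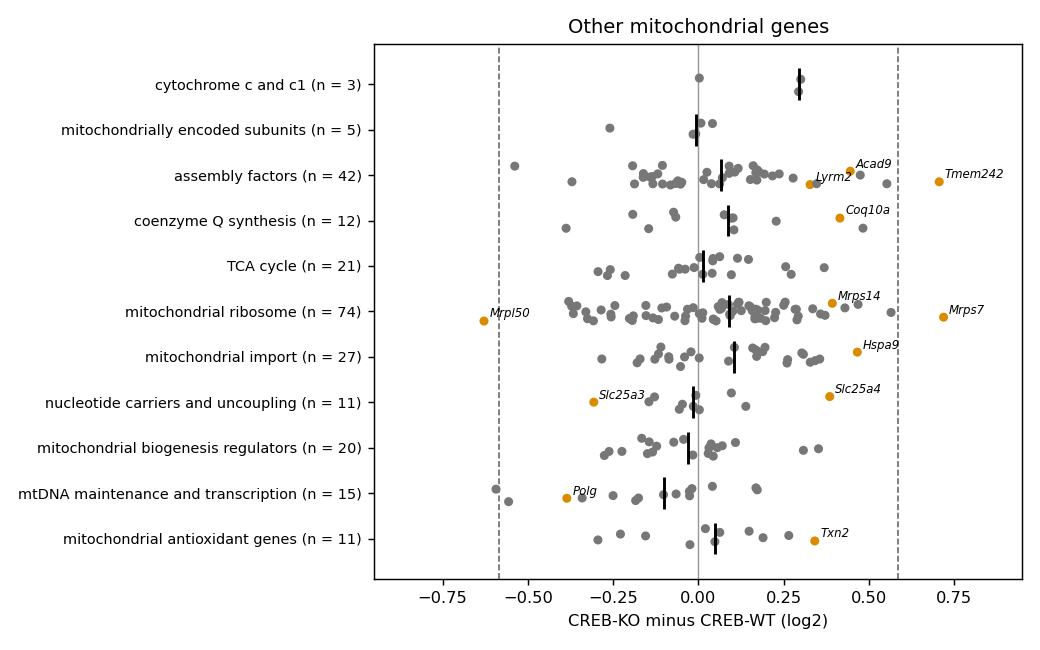
Each point is 1 gene of a mitochondrial list (vertical axis, with the number measured), with its log2 difference (CREB-KO less CREB-WT) on the horizontal axis. Black bars are list medians, dashed lines the 1.5-fold limit, and orange points genes with an unadjusted p below 0.05, of which Tmem242, Mrps7 and Mrpl50 lie past the limit.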

How the data were processed

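RNA of CD4+CD25+Nrp1+ cells was measured on 6 arrays, 3 per genotype label. The authors deposited log2 expression values, 1 per transcript cluster and array, made with RMA per the submitters' processing notes, which corrects background, scales arrays to each other and summarises probes. The RMA version and the genome build of the array are unstated, and the sources disagree on the array model, input RNA and kit.

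Clusters were named through the platform annotation. Of 65956 clusters, 30638 carried 1 symbol, 2176 several and 33142 none. For each symbol the cluster with the highest mean was kept. The values were fitted as deposited with limma 3.58.1 (R 4.3.3) over 30176 genes, two-sided, with Benjamini-Hochberg adjusted p-values over all genes, and 95% intervals from the same fit. The fit was tested on simulated data with known differences. The study's limits are at least 1.5-fold with an unadjusted p below 0.05, after the study's methods. An exact permutation test of 3 against 3 arrays could not go below 0.1, and the number of arrays limits precision.

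Genes are named that had an unadjusted p below 0.05, the 3 smallest p of each complex, catalytic subunits, tissue isoforms, and from each list genes past both limits and the 2 smallest p. Other genes, such as Uqcr10, Ndufaf1 and Cox7b, were singled out after their values were seen. Members and lists were chosen with earlier results of these data known. Alternatives were each array left out, both arrays numbered 1 left out, the replicate number as a block, median centring, quantile normalization, the methods' t-test, a trended robust prior, a filter on dim genes, other cluster rules and complexes by prefix alone. No genome or protein table was used. Motifs were searched in RefSeq promoters (GRCm38.p6).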

Additional observations from a re-analysis of the deposited data

How the results depend on the processing

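No oxidative phosphorylation gene reached an adjusted p of 0.05 under any setting run. Genes past the study's limits numbered 0 to 3 of 98 with 1 array left out (0 with all). The shares of all genes past these limits were then 1.68% to 3.16% (1.58% with all). The 2 without CREB-KO replicate 3 were Ndufaf1 and Ndufaf2. Under quantile normalization 1 of 98 passed (Ndufaf2), against 1.56% of all genes. Genes at an unadjusted p below 0.05 numbered 0 to 6 with 1 array left out (2 with all), and 1 each without both arrays numbered 1 and by the methods' t-test, where the shares of all genes were 4.35% to 7.48%, 5.48% and 5.604%. Beside Uqcrb and Ndufaf2 they were Cox6b1 without both arrays numbered 1, Cox6b1 and Ndufs3 without CREB-KO replicate 1, Ndufs1 and Cox8c without CREB-KO replicate 2, Ndufaf1 without CREB-KO replicate 3, and Ndufb9, Cox5a, Atp5c1 and Ndufv2 without CREB-WT replicate 3. Genes whose groups did not overlap, in either direction, numbered 6 to 22 with 1 array left out (3 with all), without CREB-WT replicate 2 and 3, when 21.5% and 23.4% of all genes did not overlap, and 17 without both arrays numbered 1 (17.3%, against 34.6% of all genes). The median difference of complex III was 0.27 without both arrays numbered 1, and that of complex IV 0.027, against 0.036 to 0.12 with 1 array left out. Over all genes 477 passed the study's limits, but 890 without both arrays numbered 1, 953 without CREB-KO replicate 1, 796 without CREB-WT replicate 3 and 252 by the methods' t-test.

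Whether the replicate numbers pair the samples is not known, since the sample titles only number the arrays. Deviations of same-numbered arrays correlated at 0.26, -0.08 and 0.09, and those of differently numbered arrays at -0.25 to 0.22. With 3 arrays a group these values cannot decide it. With the replicate block 2 of 98 genes had an unadjusted p below 0.05, Uqcrb and Cox6b1, against 6.09% of all genes, 10 (10.2%, against 27.3% of all genes) did not overlap relative to the mean of their number, and 683 of all genes passed the study's limits.

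Named genes whose difference changed sign were not past the study's limits with all arrays. With 1 array left out the lowest and highest differences were -0.50 and 0.087 for Sdhd, -0.29 and 0.13 for Sdhb, -0.18 and 0.20 for Sdha, -0.0075 and 0.41 for Uqcrh, -0.087 and 0.48 for Uqcrc1, -0.11 and 0.029 for Uqcrfs1, -0.067 and 0.60 for Cox5a, -0.022 and 0.21 for Atp5a1 and -0.090 and 0.30 for Atp5b. For the isoforms they were -0.95 and 0.16 for Cox6a2, -0.12 and 0.33 for Cox7a1, -0.037 and 0.28 for Cox7b2, -0.23 and 0.23 for Cox8b, -0.083 and 0.46 for Cox8c, and for mitochondrially encoded genes -0.44 and 0.032 for ND2 and -0.040 and 0.085 for COX2. Without both arrays numbered 1 the values were 0.057 for Ndufs1, 0.053 for Sdha, -0.30 for Cox7a1, -0.11 for Cox8c and -0.040 for COX2. Median centring gave -0.038 for Cox8b and -0.0067 for COX2, and quantile normalization -0.063 for Atp5a1 and -0.038 for Cox8b. These scalings moved the median of all genes from 0.04 to -0.01 and 0.00. The cause was not tested.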
